A study of Mus musculus with 6 samples.

Results

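Galectins are small animal lectins that bind beta-galactoside sugars on glycoproteins and glycolipids. They are made in the cytosol, leave the cell without a signal peptide, and crosslink glycans on cell surfaces and in the matrix. The genes examined were Lgals1 (galectin-1, a prototype galectin that forms dimers and is known for dampening T-cell responses), Lgals3 (galectin-3, the chimera type that forms oligomers and is abundant in macrophages), Lgals8 and Lgals9 (tandem-repeat galectins with a pair of sugar-binding domains, the first known for marking damaged vesicles and the second as a ligand of TIM-3) and Lgals3bp, which encodes a secreted glycoprotein that galectin-3 binds and is not itself a galectin. All of these members were taken by name, 5 of the 31063 genes that the libraries share, and the rule uses no measured threshold.

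They were read in 6 mouse single-cell RNA libraries made with droplet capture of the 3' end of transcripts. In 3 of them the cells were bone marrow-derived dendritic cells (DCs) of C57BL/6 mice grown with GM-CSF: untreated DCs, DCs stimulated with vitamin D3 (VD3, calcitriol) at 1e-06 M for 24 h from culture day 7, and Ndrg2-KO DCs, in which Cas9 protein with 3 guide RNAs was nucleofected to cut Ndrg2. The untreated DCs were not nucleofected, so nucleofection and loss of Ndrg2 cannot be told apart. The other 3 libraries came from splinted full-thickness excisional wounds of 6-week-old C57BL/6J mice, covered with a pullulan-collagen hydrogel and collected on day 10: hydrogels seeded with control DCs, hydrogels seeded with Ndrg2-KO DCs, and blank hydrogels. The labels call the control DCs untreated, while the methods describe a nucleofection with non-targeting guides. Each wound group held 5 mice, and each condition was 1 library, so no difference between conditions was tested. Intervals in parentheses are exact 95% intervals that cover counting error only and not the spread between cultures or mice.

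Cells with at least 300 genes, fewer than 100000 unique molecular identifiers (UMIs, each counting 1 captured transcript) and under 10% mitochondrial UMIs were kept: 7257, 8825 and 7969 cells of the untreated, VD3 stimulated and Ndrg2-KO DC libraries, beside 1948, 5681 and 3403 cells of control DC, Ndrg2-KO DC and blank hydrogel wounds. Median depth per kept cell ran from 12089 to 16316 UMIs in the DC libraries and was 10795, 4415 and 5603 UMIs in the wounds. The DC marker Itgax, which encodes CD11c, had 146, 77.8 and 263 UMIs per 1000000 UMIs of the library (CPM) in the untreated, the VD3 stimulated and the Ndrg2-KO library, and the MHC-II gene H2-Ab1 had 908, 561 and 487 CPM. Ndrg2 itself stood at 4.62, 1.42 and 0.884 CPM, and 16 clusters of these cultures included neutrophil-like, basophil-like and cycling cells. Any pair of libraries shared at most 19 cell barcodes. The wound libraries held 1 eGFP UMI and no tdTomato UMI in all, and the paper describes no such reporter in the delivered DCs. Delivered DCs could therefore not be told from host cells.

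In the mouse genome (GRCm38, GENCODE M21) Lgals1 lies on chromosome 15 at 78926725 to 78930465 on the plus strand, Lgals3 on chromosome 14 at 47367751 to 47386160 on the plus strand and Lgals8 on chromosome 13 at 12439415 to 12464944 on the minus strand. Lgals9 (78962974 to 78984946) and Lgals3bp (118392751 to 118402092) share chromosome 11, both on the minus strand. The reads were counted over annotated transcripts and do not separate isoforms. Promoters are shown for Lgals9 and Lgals3bp, whose levels differed most between untreated and Ndrg2-KO DCs, and for Lgals3, the galectin with the highest level in these cells. Each runs from 250 bases before to 50 after the start of the RefSeq gene (GRCm38.p6), read 5′ to 3′ on the gene's strand, and capitals mark matches to the interferon-response type motif AAANNGAAA on either strand. The table held promoters for 4 of the 5 members.

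Lgals9, chr11:78984875-78985174, minus strand: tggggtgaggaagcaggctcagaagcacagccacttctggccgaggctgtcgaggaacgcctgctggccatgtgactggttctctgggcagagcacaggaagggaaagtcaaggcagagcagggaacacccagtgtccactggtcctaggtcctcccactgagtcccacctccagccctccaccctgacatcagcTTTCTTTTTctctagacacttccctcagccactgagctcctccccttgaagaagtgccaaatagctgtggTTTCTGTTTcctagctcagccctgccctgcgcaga

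Lgals3bp, chr11:118401910-118402209, minus strand: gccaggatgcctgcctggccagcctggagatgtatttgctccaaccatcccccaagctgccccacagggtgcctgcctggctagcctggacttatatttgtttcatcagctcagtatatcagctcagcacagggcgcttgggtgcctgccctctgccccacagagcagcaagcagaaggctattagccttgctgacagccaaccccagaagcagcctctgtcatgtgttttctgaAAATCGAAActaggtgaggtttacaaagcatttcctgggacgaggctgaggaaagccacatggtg

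Lgals3, chr14:47373610-47373909, plus strand: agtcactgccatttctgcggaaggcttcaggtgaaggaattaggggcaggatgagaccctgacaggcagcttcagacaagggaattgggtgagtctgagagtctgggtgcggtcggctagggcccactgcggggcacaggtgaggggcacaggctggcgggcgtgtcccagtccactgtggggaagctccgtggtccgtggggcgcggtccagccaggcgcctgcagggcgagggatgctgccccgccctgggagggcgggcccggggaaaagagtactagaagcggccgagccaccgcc

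The Lgals9 window held 2 matches, both on the opposite strand, and the Lgals3bp window held 1 match on the gene's own strand. No match was found in the windows of Lgals3 and Lgals8. Among all 32851 promoters of this length, 10.6% held at least 1 such match. The GC box GGGCGG was found in 35.7% of all promoters and, among these members, only in Lgals3, with 2 matches. TATAAA (13.6% of promoters) and the AP-1 motif TGANTCA (7.81%) were found in none of the 4 windows. Such matches describe the letters of the window and say nothing of binding.

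Lgals3 carried most of the galectin message of cultured DCs. Untreated DCs held 4419 CPM (4408 to 4430.2), VD3 stimulated DCs held 6151 CPM (6136 to 6165) and Ndrg2-KO DCs held 8379 CPM (8364 to 8394). That was 90.1%, 96.3% and 92.1% of all UMIs of galectin genes in the 3 libraries. After each cell was drawn down to 2000 UMIs, which left out 472, 1149 and 134 shallower cells, the median DC held 4, 8 and 14 Lgals3 UMIs. By CPM and by this median, untreated DCs were the lowest of the 3 and Ndrg2-KO DCs the highest, an order of CPM that no other member had. The share of drawn-down cells with at least 1 Lgals3 UMI was instead highest in VD3 stimulated DCs, at 88.3%, 97.2% and 96.3% in the same order (96.8%, 98.3% and 99.5% without drawing down), and neutrophil-like cells also held it in 87.3%, 94.1% and 81.5% of drawn-down cells.

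Lgals1 was next, and its order was different. Untreated DCs held 427 CPM of it (423 to 430.3), VD3 stimulated DCs 188 CPM (186 to 191) and Ndrg2-KO DCs 612 CPM (608 to 616). The VD3 stimulated DCs were the lowest of the 3 libraries. A drawn-down cell carried at least 1 Lgals1 UMI in 45.5%, 24.5% and 51.7% of cells (76.7%, 55.6% and 82.4% without drawing down), beside 5.31%, 2.44% and 11.1% in the neutrophil-like cells of the same cultures, which ranked lowest for Lgals1 and whose median depth before drawing was 2856 to 3415 UMIs.

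The remaining members were sparse in culture. With the libraries in the same order, Lgals8 stood at 17.0, 15.7 and 30.2 CPM. Lgals9 stood at 35.1, 26.9 and 70.1 CPM, and Lgals3bp at 29.5, 18.7 and 111 CPM. All 5 members were therefore highest in the Ndrg2-KO library, and all but Lgals3 were lowest in the VD3 library.

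**Figure D1:**
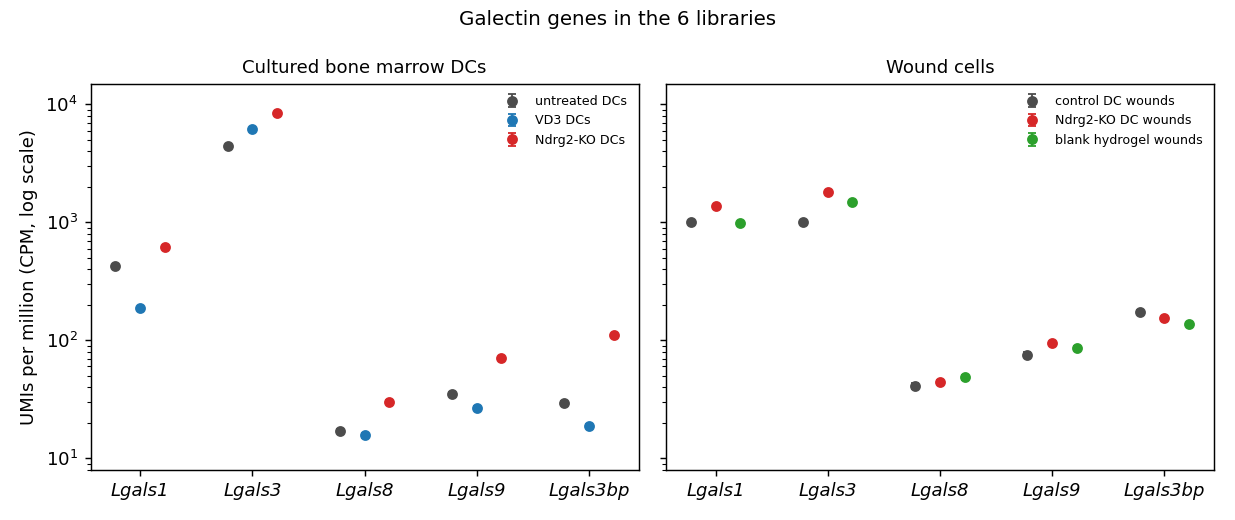
Level of each member (CPM, log axis) in the 3 DC libraries and the 3 wound libraries, 1 point per library with its exact counting interval. All 5 points of the Ndrg2-KO DCs lie above those of the other 2 DC libraries, from 30.2 CPM for Lgals8 to 8379 CPM for Lgals3.

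Between VD3 stimulated and untreated DCs, Lgals1 was the member past 2-fold, the size set for naming a gene. Its log2 ratio was -1.18 (-1.20 to -1.16). Of 13113 genes with at least 50 UMIs over both libraries, 11.6% were past 2-fold in either direction and 7.44% were at least 2-fold lower, and 5.64% had a ratio at or below that of Lgals1. The other members differed less, with log2 ratios of 0.48 for Lgals3, -0.11 for Lgals8, -0.38 for Lgals9 and -0.66 for Lgals3bp. The median member ratio was -0.38 and the median over all genes was -0.08.

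Between Ndrg2-KO and untreated DCs, Lgals3bp was past 2-fold, at a log2 ratio of 1.91 (1.86 to 1.96) or 3.75-fold. Past 2-fold were 19.5% of 13329 genes, 10.2% of them higher, and 3.92% of genes had a ratio at or above that of Lgals3bp. Lgals9 lay at the threshold with a log2 ratio of 0.999 (0.95 to 1.05), just under 2-fold, followed by Lgals3 at 0.92, Lgals8 at 0.83 and Lgals1 at 0.52. The median member ratio was 0.92 against -0.06 over all genes. In each of these comparisons 1 of 5 members was past 2-fold, and both use the same untreated library. With cells under 5% mitochondrial UMIs alone, 4 of 5 were past 2-fold between Ndrg2-KO and untreated DCs, beside 17.8% of genes.

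Set directly against VD3 stimulated DCs, Ndrg2-KO DCs were higher by more than 2-fold in 3 members, with log2 ratios of 1.70 for Lgals1, 1.38 for Lgals9 and 2.56 for Lgals3bp. Lgals8 followed at 0.95 and Lgals3 at 0.45. In that comparison 22.2% of 13235 genes were past 2-fold and 13.0% were higher.

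The 3 cultures held different cells, and the levels within cell classes were not those of whole libraries. Clusters were made without any galectin gene among the variable genes. Mature DC-like cells were named from a list of 8 markers such as Ccr7, Fscn1 and Ccl22, of which clusters 1 and 6 passed 6, cluster 2 passed 8 and cluster 13 passed 3. Fscn1 did not pass in cluster 6, nor Ccr7 and Ccl22 in cluster 13. They were 2715 untreated, 3485 VD3 stimulated and 2112 Ndrg2-KO cells, held mostly by clusters 2, 1 and 6 respectively. Cluster 0 was named premature DC-like from 5 of 8 listed markers (Csf1r, Ccr2, Lyz2, Fn1 and Mmp12), and Cx3cr1, Cd34 and Chil3 did not pass. It was led by Arg1 and Fabp4 and held 3686 of the Ndrg2-KO cells and 6 untreated cells. Of 16 DC clusters, 11 drew over 90% of their cells from 1 library, so the cluster and the library often could not be told apart.

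In mature DC-like cells the untreated library held 393 CPM of Lgals1, the VD3 library 244 CPM and the Ndrg2-KO library 246 CPM. The Ndrg2-KO level was thus lower than the untreated one, at a log2 ratio of -0.67 (-0.72 to -0.63), whereas the whole libraries gave 0.52. VD3 stimulated and Ndrg2-KO mature DC-like cells differed by 0.01 (-0.03 to 0.06). The Ndrg2-KO library's Lgals1 came from elsewhere: cluster 0 at 725 CPM and the cycling cluster 10 at 795 CPM held 61.9% and 25.1% of its Lgals1 UMIs, and its mature DC-like cluster 6 held 6.61%.

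Lgals3 followed another pattern in these cells. Mature DC-like cells held 2001 CPM when untreated, 5429.8 CPM when VD3 stimulated and 2997 CPM when Ndrg2 was cut. The ratio of VD3 stimulated to untreated cells was 1.44 on the log2 scale (1.43 to 1.45), past 2-fold like 8.04% of 11464 genes, 3.66% being higher, and that of Ndrg2-KO to untreated cells was 0.58 (0.57 to 0.60). The Ndrg2-KO cells of the class sat mostly in cluster 6 and the untreated ones in cluster 2, and clusters that both libraries shared did not give 1 direction. Of 6 clusters with at least 20 cells of both, the interval of the Lgals3 ratio of Ndrg2-KO to untreated DCs lay above 0 in 2 and below 0 in 3, with a median of -0.33. It was past 2-fold lower in cluster 2 (966 and 1986 CPM, -1.04, with 7.85% of genes lower). Against VD3 stimulated DCs it lay above 0 in 2 and below 0 in 3 of 5 clusters, and was past 2-fold lower in clusters 2 and 13, beside 3.94% and 3.93% of genes. High Lgals3 levels were found outside the mature class as well: 10544 CPM in the premature DC-like cluster 0 of Ndrg2-KO DCs, 9013 CPM in untreated cluster 8 (unnamed, led by Plet1 and Cxcl3), 7707 CPM in VD3 cluster 7 (unnamed, led by Gdf15 and Ms4a7) and 9403, 11095 and 9241 CPM in the cycling cells of untreated, VD3 stimulated and Ndrg2-KO DCs. These cycling cells are not alike, since 563 untreated and all 1457 VD3 stimulated ones were in cluster 3, at median depths of 2826 and 1839 UMIs, and 1053 Ndrg2-KO ones in cluster 10, at 25501 UMIs. Cluster 3 passed 4 of 6 cycling markers, without Mki67 and Top2a, and was led by Ifitm6 and Gm5483, while cluster 10 passed 6 of 6. Clusters 5 and 9 passed 6 of 6 but stayed numbered, so their cells are outside this class. In cluster 3 itself Lgals3 stood at 9390.1, 11095 and 15999.9 CPM, the last from 110 cells. Neutrophil-like cells stood at 2428, 2414 and 1515 CPM.

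Lgals3bp and Lgals9 were low in mature DC-like cells. In the same order of libraries, Lgals3bp stood there at 15.3, 8.25 and 67.5 CPM and Lgals9 at 4.40, 4.53 and 15.9 CPM. Ndrg2-KO cells were higher than untreated ones within the class as well, at log2 ratios of 2.14 and 1.86, in a comparison where 14.3% of 11233 genes were past 2-fold and 10.5% were higher. In cluster 2, shared by both libraries, the ratios were 0.37 (-0.22 to 0.91) for Lgals3bp and -0.09 (-1.56 to 1.06) for Lgals9. In cluster 6, with 23 untreated cells, they were 1.57 (0.64 to 2.70) and 0.65 (-0.72 to 2.54), and 10.5% of genes were at least 2-fold higher. In the premature DC-like cluster 0 Lgals3bp reached 132 CPM and Lgals9 88.2 CPM, and this cluster held 62.2% and 65.8% of their UMIs in the Ndrg2-KO library.

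**Figure D2:**
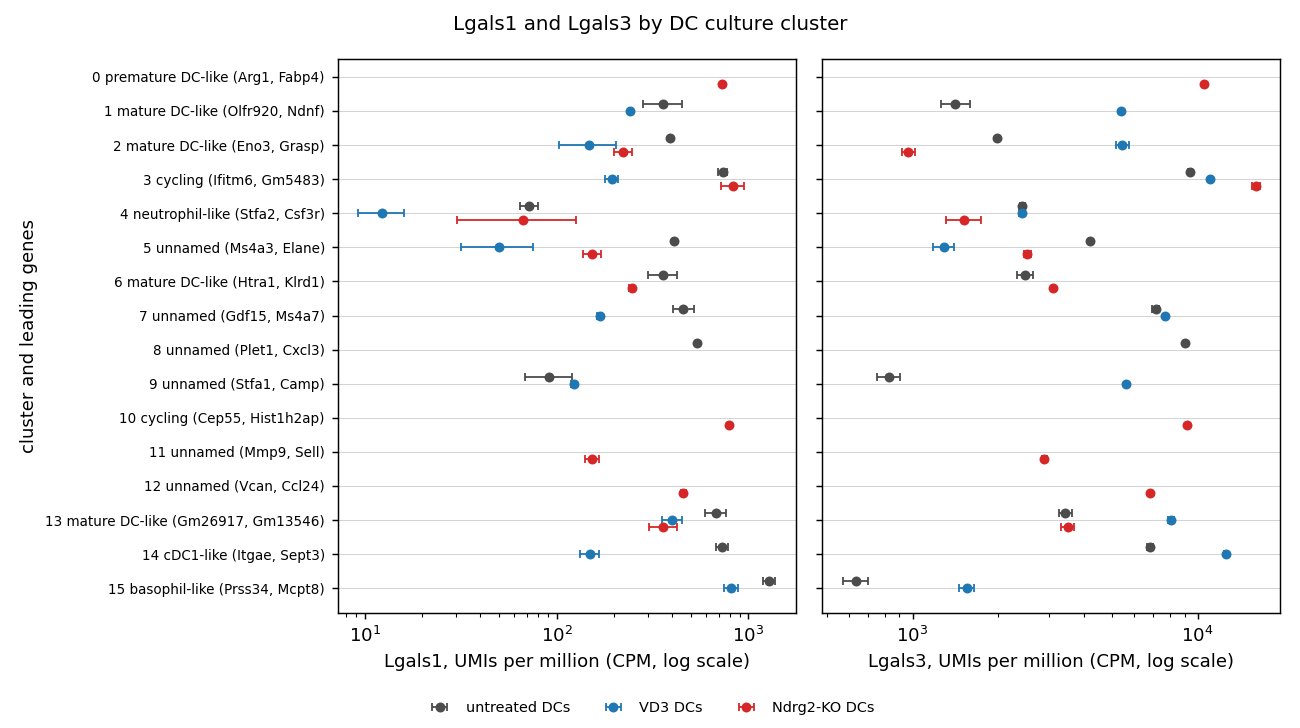
Lgals1 and Lgals3 (CPM, log axis) in each DC cluster, 1 point per library with its exact counting interval. Libraries with fewer than 20 cells in a cluster are left out. Lgals1 of VD3 stimulated DCs lies below that of untreated DCs in 9 of the 10 clusters that both share.

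Lgals1 was lower in VD3 stimulated than in untreated cells in most clusters that both shared. In 10 clusters with at least 20 cells of both libraries, the log2 ratio ran from -3.02 to 0.42, its interval lay below 0 in 9, and it was past 2-fold in 6. These were clusters 2, 3, 4, 5, 7 and 14, where 5.84%, 2.75%, 2.5%, 11.6%, 9.01% and 4.91% of genes were at least 2-fold lower. Clusters 2, 5 and 7 rested on 23 and 29 VD3 stimulated and 24 untreated cells, and in clusters 3, 4 and 14 each library had at least 78 cells. The untreated and the VD3 stimulated cells of cluster 5 held S100a9 at 2614 and 15971 CPM and Cd74 at 4174 and 622 CPM. Those of cluster 7 held Ccr7 at 610 and 256 CPM, Csf1r at 55.5 and 237 CPM and S100a9 at 2482 and 655 CPM. Those of cluster 14 held S100a9 at 6.34 and 167 CPM and H2-Ab1 at 7844 and 3944 CPM. The part of such differences in the ratios was not tested. Untreated cells of the cycling class, which leaves out clusters 5 and 9, stood at 722 CPM and VD3 stimulated ones at 194 CPM. The cDC1-like cells stood at 727 and 149 CPM and neutrophil-like cells at 72.2 and 12.3 CPM. The cDC1-like cluster passed 3 of 6 markers (Itgae, Clec9a and Irf8), and Xcr1, Tlr3 and Cadm1 did not pass. Basophil-like cells, the highest class for Lgals1 in these cultures, stood at 1285 and 811 CPM. The exception was cluster 9, where 30 untreated cells stood at 91.8 CPM and 1068 VD3 stimulated cells at 123 CPM. The cells of this cluster differed in other markers, with S100a9 at 74175 and 5935 CPM, Itgax at 0 and 110 CPM and the MHC-II chaperone gene Cd74 at 707 and 4095 CPM, and their part in the ratio was not tested. For Lgals3 the interval lay above 0 in 8 of the 10 clusters and below 0 in 1, and 5 clusters were past 2-fold higher. These were clusters 1, 2, 9, 13 and 15, where 7.15%, 13.1%, 20.5%, 3.15% and 2.8% of genes were at least 2-fold higher. Clusters 1, 2 and 9 had 21 untreated, 23 VD3 stimulated and 30 untreated cells on their smaller side.

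A list of 20 genes for known galectin partners was read as well, most of them glycoproteins that galectins bind. It also holds proteins that are not surface glycoproteins, such as Trim16, a cytosolic ubiquitin ligase that works with galectins on damaged vesicles, Calcoco1, also cytosolic, and the disulfide isomerase gene P4hb. Between Ndrg2-KO and untreated DCs 8 of the 19 tested were past 2-fold higher and 3 lower, beside 10.2% and 9.28% of all genes. Cd36, a scavenger receptor, had 182 CPM without and 1469.5 CPM with the Ndrg2 cut, or 3.02 as a log2 ratio. Mertk, a receptor for the uptake of dead cells that galectin-3 can engage, stood at 8.53 and 44.8 CPM, a log2 ratio of 2.39. Havcr2, which encodes the galectin-9 receptor TIM-3, stood at 2.62 and 10.1 CPM (1.95), the lysosomal Lamp2 at 177 and 668 CPM (1.92) and Trem2 at 157 and 499 CPM (1.67). Those lower were Spn (CD43) at 20.8 and 7.62 CPM, Trim16 and Lag3. The median log2 ratio of the list was 0.48.

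Under VD3, 2 of 18 tested partners were past 2-fold higher and 4 lower, beside 4.18% and 7.44% of all genes. Havcr2 (2.62 CPM untreated, 6.67 CPM with VD3) and Trem2 (157 and 343 CPM) were higher. Itgam (198 and 52.4 CPM), the hyaluronan receptor gene Cd44 (217 and 73.0 CPM), Cd36 (182 and 61.4 CPM) and Alcam (64.5 and 31.7 CPM) were lower. Havcr2 and Trem2 were therefore above the untreated level in both other libraries, and Cd36 lay on opposite sides of it. The list's median log2 ratio was -0.14. Between Ndrg2-KO and VD3 stimulated DCs, 7 of 19 were past 2-fold higher, led by Cd36 at 4.58 and Itgam at 2.73, and Trim16 and Lag3 were lower, beside 13.0% of all genes higher and 9.21% lower.

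**Figure D3:**
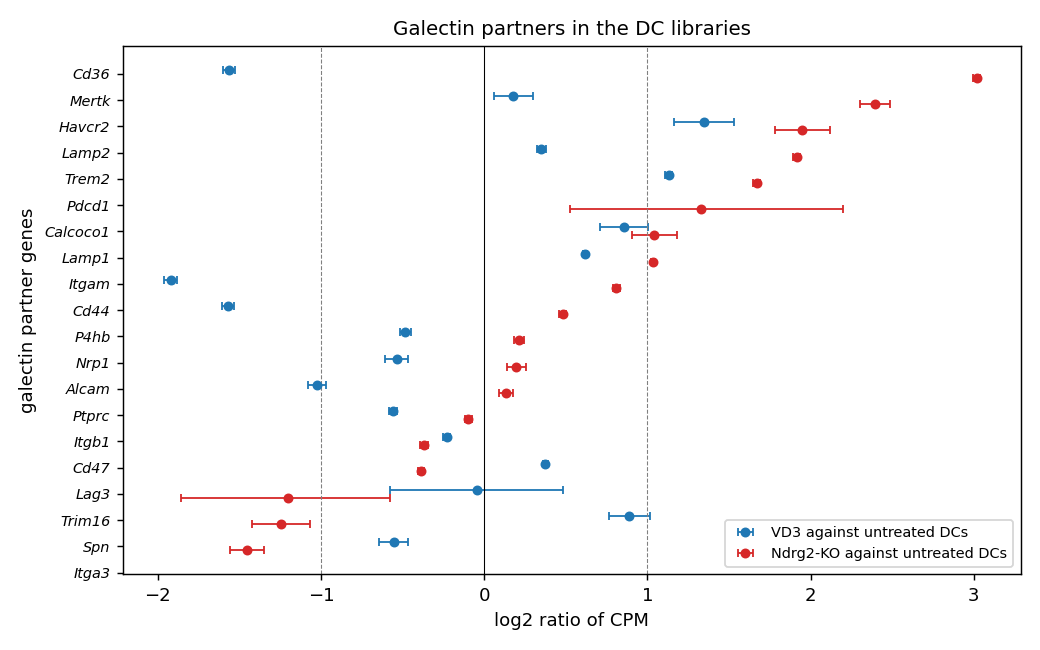
Log2 ratio of CPM of genes for galectin partners in VD3 stimulated and in Ndrg2-KO DCs, each against untreated DCs, with exact counting intervals and dashed lines at 2-fold; genes under 50 UMIs have no point. Cd36 lies at -1.56 in VD3 stimulated and at 3.02 in Ndrg2-KO DCs.

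Genes for enzymes that build or cap galectin-binding glycans were also read. Of 13, 1 was past 2-fold higher and 1 lower when Ndrg2-KO DCs were set against untreated ones, beside 10.2% and 9.28% of all genes. St6gal1, which adds the sialic acid known to block galectin-1 binding, was the higher one (13.1 and 33.6 CPM, a log2 ratio of 1.36) and Gcnt1, which branches O-glycans, was lower (-1.04). St3gal1 was higher in Ndrg2-KO than in VD3 stimulated DCs at 1.31, 1 of 13 beside 13.0% of genes higher, and none of the 13 was past 2-fold between VD3 stimulated and untreated DCs or between wounds. Of the 6 other galectin-family genes in the libraries, Lgals4 stood at 0.965, 1.72 and 2.15 CPM and Lgalsl at 5.57, 5.27 and 2.29 CPM in the 3 DC libraries, at log2 ratios of 1.16 and -1.28 between Ndrg2-KO and untreated DCs. Lgals2, Lgals7, Lgals12 and Grifin had at most 12 UMIs in any DC library.

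In the wounds Lgals1 made up more of the galectin message than in the DC cultures. Lgals1 stood at 1006 CPM in control DC wounds (995 to 1018), 1370.5 CPM in Ndrg2-KO DC wounds and 993 CPM in blank hydrogel wounds. Lgals3 stood at 1002 CPM (991 to 1014), 1809 and 1487 CPM. Lgals1 made up 45.5%, 40.5% and 37.1% of galectin UMIs and Lgals3 45.3%, 53.5% and 55.6%. Lgals8 stood at 41.1, 44.3 and 48.6 CPM, Lgals9 at 75.7, 94.4 and 86.4 CPM and Lgals3bp at 174, 155 and 137 CPM, so that Lgals3bp was highest in control DC wounds.

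No member was past 2-fold between whole wound libraries. Between Ndrg2-KO DC and control DC wounds the log2 ratios were 0.45 for Lgals1, 0.85 for Lgals3, 0.11 for Lgals8, 0.32 for Lgals9 and -0.17 for Lgals3bp (0.07 without the neutrophil-like clusters), and 10.6% of 13358 genes were past 2-fold. Between blank hydrogel and control DC wounds they were -0.02, 0.57, 0.24, 0.19 and -0.34, and 7.6% of genes were past 2-fold. Between Ndrg2-KO DC and blank hydrogel wounds they ran from -0.14 to 0.47, with 3.76% of genes past 2-fold. The cell make-up moved with these libraries: neutrophil-like cells were 23.6%, 51.0% and 45.8% of kept cells and fibroblast-like cells 24.1%, 8.15% and 9.49% in control DC, Ndrg2-KO DC and blank hydrogel wounds, and their part in the library ratios was not tested.

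Lgals1 was highest in the cycling cluster 11, at 3256, 4635 and 3887 CPM in control DC, Ndrg2-KO DC and blank hydrogel wounds. These 13, 38 and 18 cells also held the fibroblast gene Col1a1 at 23708, 18503 and 15587 CPM, beside 29848, 21238 and 22264 CPM in fibroblast-like cells. Next came the fibroblast-like cluster 2, with Lgals1 at 1339.9, 2568 and 1755 CPM. In the control DC wounds the interval of fibroblast-like cells overlapped that of cluster 8 (1275 CPM, a mixed cluster led by Krt14), and the T- and NK-cell cluster 6 came next at 1002 CPM. Endothelial-like cells (682 CPM), the macrophage-like clusters 7 and 5 (584 and 559 CPM), cluster 3 (485 CPM), the monocyte-like cluster 4 (484 CPM) and the DC-like cluster 10 (150.3 CPM) followed. The intervals of endothelial-like cells and cluster 7, of clusters 7 and 5 and of clusters 3 and 4 overlapped. Neutrophil-like cells held almost none, at 9.17, 21.9 and 16.6 CPM. Fibroblast-like cells alone held 66.8%, 48.8% and 49.1% of the Lgals1 UMIs of the 3 wounds.

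Lgals3 had another order. It was highest in cluster 3, unnamed and led by Mmp12, Mmp13 and Arg1, at 4681, 5169 and 3540.2 CPM, and this cluster held 36.0%, 46.4% and 37.0% of Lgals3 UMIs. Monocyte-like cells stood at 2667, 3294 and 3391 CPM and macrophage-like cells at 1465, 1474 and 1402 CPM. Neutrophil-like cells stood at 579.5, 1198 and 959 CPM. Fibroblast-like cells were among the lowest, at 184, 339 and 181 CPM.

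Lgals3bp was highest in the macrophage-like clusters 7 and 5 in all 3 wounds. Macrophage-like cells stood at 279.9, 296 and 275 CPM and fibroblast-like cells at 176, 217 and 192 CPM. In control DC wounds the cycling cluster 11 (226 CPM) and cluster 3 (225 CPM) lay between them, while neutrophil-like cells stood at 0.611, 3.98 and 3.91 CPM. Lgals9 was high in the endothelial-like cluster 12 and in the macrophage-like clusters 7 and 5. It stood at 185, 141 and 97.3 CPM in these clusters in control DC wounds, at 182, 191 and 143 CPM in Ndrg2-KO DC wounds and at 137, 162 and 167 CPM in blank hydrogel wounds, and in each wound the intervals of the first 2 clusters in the order overlapped. Lgals8 was also highest in clusters 7 and 5. It stood at 73.1, 73.9 and 77.4 CPM in macrophage-like, 55.2, 52.7 and 62.3 CPM in monocyte-like, 43.4, 30.5 and 40.3 CPM in neutrophil-like and 30.8, 33.1 and 37.5 CPM in fibroblast-like cells, and at 0, 3.16 and 11.8 CPM in the DC-like cluster 10. Among the other family genes, Lgals7, a galectin of stratified epithelium, stood at 70.7, 52.0 and 49.8 CPM in the wounds, and cluster 8 with its keratin genes held 94.2%, 92.1% and 95.2% of its UMIs.

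**Figure D4:**
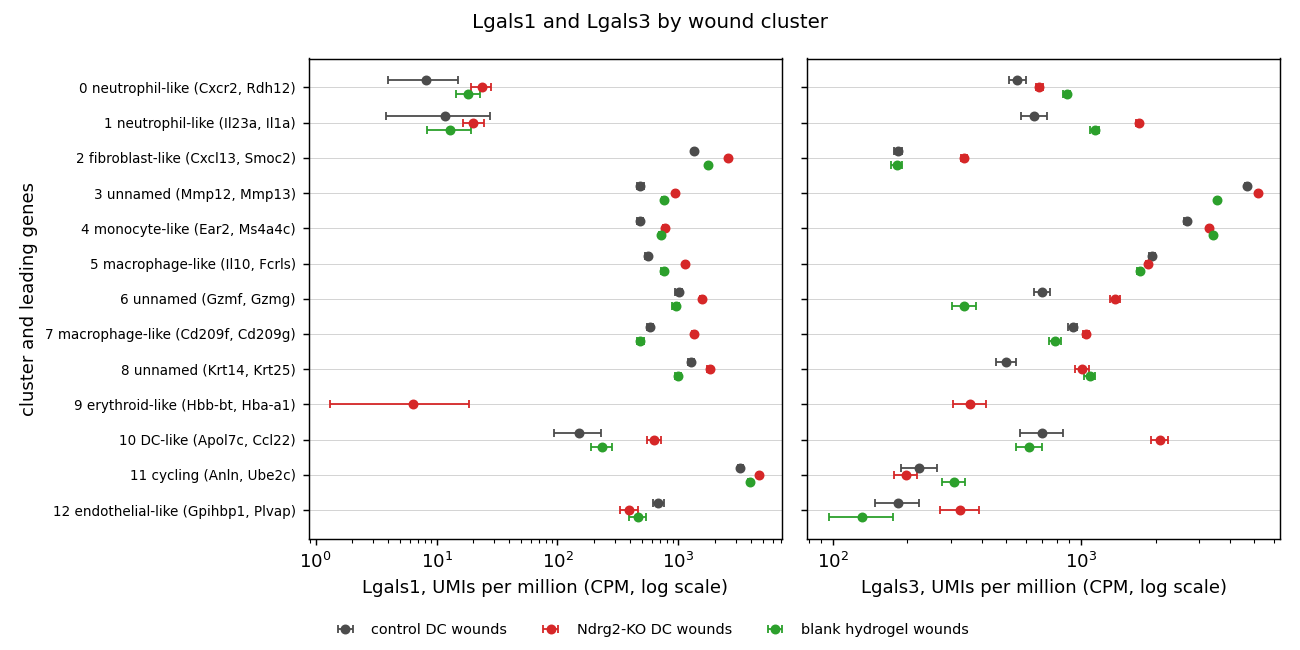
Lgals1 and Lgals3 (CPM, log axis) in each wound cluster, 1 point per library of at least 10 cells with its exact counting interval. Fibroblast-like cells are high for Lgals1 (1339.9 to 2568 CPM) and low for Lgals3 (181 to 339 CPM), and the cluster led by Mmp12 and Mmp13 is highest for Lgals3.

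Within cell types Lgals1 was higher in Ndrg2-KO DC than in control DC wounds in most clusters. Of 12 clusters with at least 10 cells of both, the log2 ratio was above 0 in 11, its interval above 0 in 10, and 4 were past 2-fold. These were clusters 0, 5, 7 and 10, where 3.63%, 3.22%, 4.37% and 12.8% of genes were at least 2-fold higher. Against the same control library, the ratio of blank hydrogel wounds was above 0 in 8 of 12 clusters. Its interval lay above 0 in 6 and below 0 in 3. Cluster 0 is neutrophil-like, and its ratios rest on 10 Lgals1 UMIs in control DC wounds. Lgals1 stood there at 8.24, 23.6 and 18.4 CPM in control DC, Ndrg2-KO DC and blank hydrogel wounds, a level used below as a floor. Hbb-bs stood there at 134 CPM in control DC and 2668 CPM in Ndrg2-KO DC wounds. In fibroblast-like cells the ratio of Ndrg2-KO DC to control DC wounds was 0.94 (0.91 to 0.96), just under 2-fold. Of 11007 genes 4.1% were at least 2-fold higher, 5.37% past 2-fold in either direction and 4.66% at or above Lgals1. The study named this gene for fibroblasts from the same libraries, so these values are no independent evidence of its direction. Drawn down to 1000 UMIs, the median fibroblast-like cell held 1 Lgals1 UMI in control DC, 2 in Ndrg2-KO DC and 1 in blank hydrogel wounds, and 57.9%, 84.9% and 60.7% of these cells held at least 1 (469 of 470, 463 of 463 and 322 of 323 cells as sequenced, at median depths of 30018, 26709 and 28010.0 UMIs). In neutrophil-like cells, as a floor, 0.661%, 2.55% and 2.16% of drawn-down cells did (15 of 460, 203 of 2898 and 90 of 1558 cells as sequenced, at median depths of 3282, 2928 and 3359 UMIs).

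In macrophage-like cells the ratio was past 2-fold. Lgals1 stood there at 571 CPM in control DC wounds, 1237 CPM in Ndrg2-KO DC wounds and 661 CPM in blank hydrogel wounds. The log2 ratio of Ndrg2-KO DC to control DC wounds was 1.12 (1.06 to 1.17), past 2-fold like 3.96% of 9226 genes, with 3.18% higher. Both macrophage-like clusters were past 2-fold, at 1.03 and 1.20, and Col1a1, the fibroblast collagen gene, stood at 47.5 to 80.9 CPM in them, beside 21238 to 29848 CPM in fibroblast-like cells. The neutrophil gene S100a9 stood at 313 CPM in control DC and 2731 CPM in Ndrg2-KO DC wounds in cluster 5 and at 189 and 809 CPM in cluster 7. Hbb-bs, a globin gene, stood at 1672 and 2520.0 CPM in cluster 5 and at 628 and 1627 CPM in cluster 7, and the part of both genes' sources in the ratios was not tested. The DC-like cluster 10 had the highest ratio, 2.07 (1.43 to 2.77), from 22 UMIs in 14 control DC wound cells and 199 UMIs in 24 Ndrg2-KO DC wound cells. In this cluster S100a9 stood at 47.8 and 5344 CPM and Hbb-bs at 34.2 and 10125 CPM in the same wounds, and their part in the ratio was not tested. Endothelial-like cells had the opposite sign, at 682 and 392 CPM, a log2 ratio of -0.80 (-1.08 to -0.52) from 27 and 18 cells. In them S100a9 stood at 15.2 and 2754 CPM, Col1a1 at 400 and 200 CPM and Hbb-bs at 449 and 63.1 CPM. The part of these genes' sources in the ratio was not tested.

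**Figure D5:**
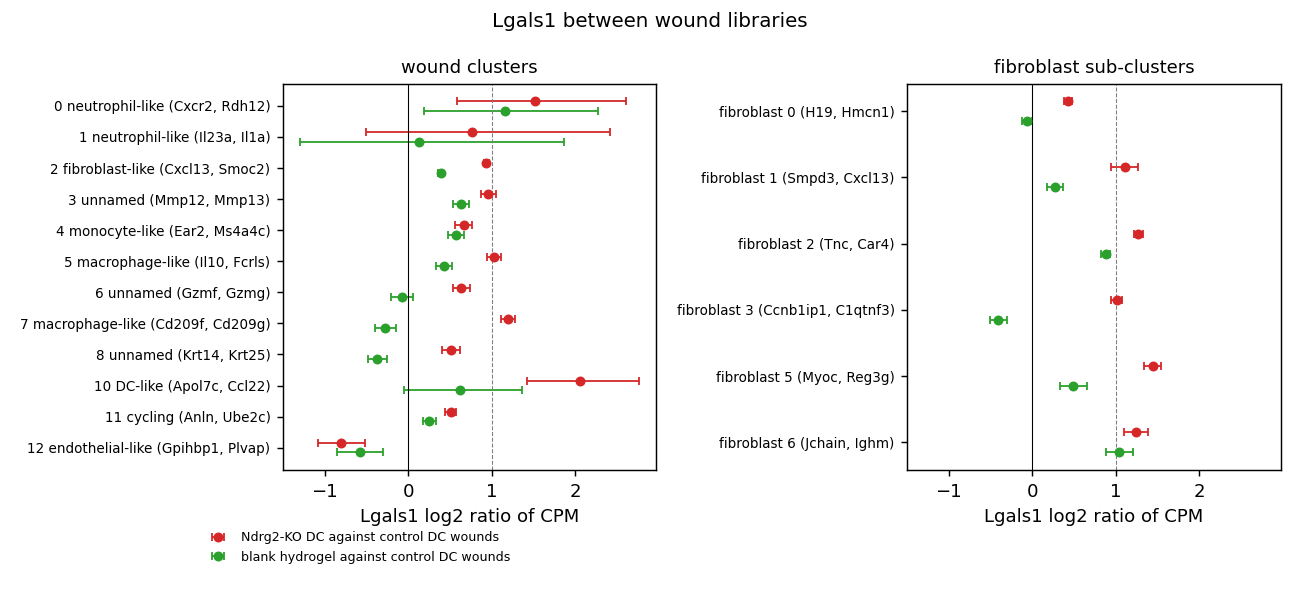
Log2 ratio of Lgals1 in each wound cluster and each sub-cluster of the fibroblast-like cluster, for Ndrg2-KO DC against control DC wounds and for blank hydrogel against control DC wounds, with exact counting intervals and a dashed line at 2-fold higher. Ratios of Ndrg2-KO DC wounds lie above 0 in 11 of 12 clusters, and that of the endothelial-like cluster lies at -0.80.

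Other cell types' messages also moved in the fibroblast-like cells. Their 7 neutrophil markers summed to 69.1, 590.0 and 542 CPM in control DC, Ndrg2-KO DC and blank hydrogel wounds, with 6 of 7 higher in Ndrg2-KO DC wounds, and 5 erythroid markers summed to 179, 2084 and 1020 CPM (5 of 5 higher). Of the neutrophil and erythroid markers none was at 0 in any wound. The 8 macrophage markers summed to 526, 710 and 487 CPM and 2 of 7 keratinocyte markers were at 0 in each wound. Lgals1 itself stood at no more than 23.6 CPM in the neutrophil-like clusters, at 0 to 11.7 CPM in the erythroid cluster and at 571, 1237 and 661 CPM in macrophage-like cells of the 3 wounds. The part of other cells' messages in the Lgals1 ratio was not tested. The 7 fibroblast markers summed to 96386, 77124 and 73788 CPM, with 1 of 7 above the control level in Ndrg2-KO DC wounds, and Lgals1 counted 4.49%, 12.1% and 7.88% of the Col1a1 UMIs.

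Fibroblast-like cells were split further, after the data had been seen. In 6 sub-clusters with at least 10 cells of both wounds, Lgals1 was higher in Ndrg2-KO DC than in control DC wounds in all 6, and 5 were past 2-fold. Sub-cluster 6 stays unnamed, since the B-cell genes Jchain, Ighm and Igkc led it, and had 12 control DC wound cells. Of the 5 sub-clusters named fibroblast-like, all 5 were higher and 4 were past 2-fold. Without sub-cluster 6 the ratio over fibroblast-like cells was 0.96. Sub-cluster 2, with the myofibroblast gene Acta2, Tnc and Tagln, stood at 1701 CPM in control DC, 4103 CPM in Ndrg2-KO DC and 3129.8 CPM in blank hydrogel wounds. Sub-cluster 5, led by Myoc, stood at 941, 2562 and 1327 CPM, and sub-cluster 1, led by Smpd3 and Cxcl13, at 511, 1102 and 617 CPM. The sub-cluster led by H19 and Hmcn1 was the one under 2-fold, at 1611, 2167 and 1546 CPM, a log2 ratio of 0.43. In the 5 past 2-fold, sub-clusters 1, 2, 3, 5 and 6, at least 2-fold higher were 3.98%, 4.26%, 3.75%, 5.57% and 7.82% of genes. Sub-cluster 4, led by Pgr and Ngfr, had 140 of its 141 cells from Ndrg2-KO DC wounds and gave no ratio; Lgals1 stood at 1737 CPM in them. In blank hydrogel wounds 4 of the 6 ratios to control DC wounds were above 0 and 1 was past 2-fold (the unnamed sub-cluster 6, with 5.11% of genes higher), against 3 and 0 of the 5 named ones, and over all fibroblast-like cells the ratio was 0.39 (0.36 to 0.42).

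Lgals3 differed in other cells. Between Ndrg2-KO DC and control DC wounds it was past 2-fold higher in 3 of 12 clusters: the neutrophil-like cluster 1 (649 and 1711 CPM, a log2 ratio of 1.40, with 9.73% of genes higher, and Hbb-bs at 118 and 2298 CPM), the DC-like cluster 10 (697 and 2076 CPM, 1.58, 12.8%) and the mixed cluster 8 (498 and 1014 CPM, 1.02, 7.47%). In cluster 10 S100a9 and Hbb-bs were higher in Ndrg2-KO DC wounds too, as given above for Lgals1, and neutrophil-like cells themselves held 579.5 and 1198 CPM of Lgals3. In cluster 8 Hbb-bs stood at 46.2 and 2711 CPM, Col1a1 at 4647 and 2307 CPM and the median depth at 11994 and 3571 UMIs. The part of these cells and shifts in the ratios was not tested. Blank hydrogel wounds held 1139, 620 and 1084 CPM of Lgals3 in clusters 1, 10 and 8, the last above the 1014 CPM of Ndrg2-KO DC wounds. Between Ndrg2-KO DC and control DC wounds Lgals3 differed by 0.01 (-0.03 to 0.05) in macrophage-like cells and by 0.14 in cluster 3. In fibroblast-like cells it was 0.88 (0.81 to 0.95), 0.48 without the 6% of cells with the highest doublet scores and 0.34 without the unnamed sub-cluster 6. Over their sub-clusters it ran from -0.24 to 1.30 with 3 of 6 above 0, and 2 of the 5 named ones. Lgals9 was above 0 in 11 of 12 clusters, with its interval above 0 in 6 and none of the tested ones past 2-fold, at 0.53 in fibroblast-like and 0.78 in monocyte-like cells. In monocyte-like cells Lgals9 was also higher in blank hydrogel than in control DC wounds, at 0.84 (0.55 to 1.14), and Ndrg2-KO DC and blank hydrogel wounds differed by -0.06 (-0.26 to 0.14). S100a9 stood there at 997, 4521 and 1590.5 CPM in control DC, Ndrg2-KO DC and blank hydrogel wounds, and its part was not tested. Lgals3bp lay lower in cluster 3 of Ndrg2-KO DC wounds, at 225 and 137 CPM, a log2 ratio of -0.71, and of blank hydrogel wounds, at 143 CPM and -0.66, and the former differed from the latter by -0.06 (-0.19 to 0.08). In cluster 3 S100a9 stood at 45.0, 2142 and 818 CPM and Hbb-bs at 329, 2185 and 1671 CPM in the 3 wounds, and their part was not tested. The interval of Lgals8 lay above 0 in 0 of 12 clusters and below 0 in 1.

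Of the 20 genes for galectin partners, 1, Lag3, was past 2-fold between whole Ndrg2-KO DC and control DC wounds. It was past 2-fold lower (5.32 CPM in control DC and 2.64 CPM in Ndrg2-KO DC wounds), beside 6.22% of all genes lower. In fibroblast-like cells 4 of 16 tested were at least 2-fold higher in Ndrg2-KO DC than in control DC wounds: Trem2, Itgam, Ptprc and Alcam, beside 4.1% of all genes. Trem2, Itgam and Ptprc are myeloid or pan-leukocyte genes, at 9.21, 14.1 and 14.4 CPM there in Ndrg2-KO DC wounds. The same 4 were at least 2-fold higher in blank hydrogel than in control DC wounds, and Cd36 was lower, beside 2.43% of genes higher and 0.905% lower.

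Over 12 wound cell types with all libraries added, the genes whose log2 levels followed each member most closely among 5681 genes were picked by Pearson's r, as a description. For Lgals1 they were Alg5 (0.994) and Dpm3 (0.986), for Lgals3 Cyba (0.917) and Atp6v1f (0.905), for Lgals8 Mindy1 (0.904), for Lgals9 Man1c1 (0.927) and for Lgals3bp Canx (0.971). These cell types share libraries and differ in depth, and so the correlations carry no test.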

How the data were processed

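Gene counts came as the authors deposited them: whole UMI counts per cell barcode and gene, not normalized, from 10x Single Cell 3′ v3 libraries, made with Cell Ranger, version 3.1.0 (DCs) and 6.0.0 (wounds) as the headers state. The methods name mm10, and the submitters' notes name mm9 and Seurat 3.1.1. Such 3′-end counts were not scaled by gene length. After the filters on cells, UMIs were summed per library or per cluster and divided by the total UMIs of that sum, as CPM. Intervals were exact (Poisson for CPM, conditional binomial for ratios), covered counting error only, and held the true value for 94.5% and 97.0% of 200 genes changed in simulated counts of Ndrg2-KO against untreated DCs (13329 genes) and of fibroblast-like cells (11007 genes). The simulated counts were independent Poisson draws, which the intervals assume. These shares therefore check the calculation and not the fit of the intervals to real cells, cultures or mice.

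With 1 library per condition no test across genes was made, and a gene was named by size: past 2-fold among genes with at least 50 UMIs over both sums. A group with no UMI was set at 3 UMIs. DC and wound cells were clustered separately with Seurat 5.3.0 (2000 variable genes without any galectin gene, 15 principal components, 15 neighbours, resolution 0.5). Clusters were named from at least 3 listed markers and otherwise by number. A cluster that passed stayed numbered where another class had more markers among its 10 leading genes. This held for wound clusters 6 and 8 and for DC clusters 5 and 9. DC clusters 5 and 9 passed 6 of 6 cycling markers and are not in the cycling class. Automatic Scrublet (scanpy 1.11.5) calls marked at most 0.873% of cells of a library and were not used. Shares of cells were also read after drawing each cell down to 2000 (DCs) or 1000 UMIs (wounds).

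Named genes were all members, up to 3 list genes past 2-fold in each direction and the genes with the closest pattern; list genes named beyond that, and clusters and sub-clusters singled out, were chosen after their values were seen. Members and lists were chosen with earlier results of these data known. Alternatives covered cell filters, doublets, scaling, the fold, clustering and the cells included. Python 3.11.15, NumPy 2.4.6, pandas 2.3.3, SciPy 1.17.1, R 4.3.3 and Matrix 1.6.5 were used.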

Additional observations from a re-analysis of the deposited data

Results flagged for a closer look

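Lgals1 in the endothelial-like wound cells had a log2 ratio of -0.80 between Ndrg2-KO DC and control DC wounds, opposite in sign to the 11 other clusters, from 18 and 27 cells. In the same order S100a9 stood at 2754 and 15.2 CPM, Col1a1 at 200 and 400 CPM and Hbb-bs at 63.1 and 449 CPM. Neither their part in the ratio nor the difference was tested.

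Lgals3 in DC cluster 5, led by Ms4a3 and Elane, had a log2 ratio of -1.70 between VD3 stimulated and untreated DCs, the opposite of most DC clusters, from 29 and 1745 cells. S100a9 stood at 15971 and 2614 CPM and Cd74 at 622 and 4174 CPM in these cells; neither their part in the ratio nor the difference was tested.

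Lgals3bp in DC cluster 9, led by Stfa1 and Camp, had a log2 ratio of 1.32 between VD3 stimulated and untreated DCs, opposite to the whole libraries, with 6 UMIs in its 30 untreated cells. S100a9 stood at 5935 and 74175 CPM and Itgax at 110 and 0 CPM in the VD3 stimulated and the untreated cells; neither their part in the ratio nor the difference was tested.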

How the results depend on the processing

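No paired analysis was possible because each condition was 1 library and the labels give no shared replicate numbers. For the same reason no replicate could be left out. All 5 members were highest in Ndrg2-KO DCs among the whole DC libraries by CPM, also with totals without mitochondrial and ribosomal protein genes and by mean UMIs of cells drawn to 1000 UMIs. The share of these cells with an Lgals3 UMI was 91.5% in both VD3 stimulated and Ndrg2-KO DCs; in mature DC-like clusters alone Lgals1 was highest in untreated and Lgals3 in VD3 stimulated DCs. At 1.5-fold the members past the threshold were 2 for VD3 stimulated against untreated DCs (beside 25.7% of all genes tested), 4 for Ndrg2-KO against untreated DCs (37.1%), 1 for Ndrg2-KO DC against control DC wounds (26.7%) and 2 in fibroblast-like cells (16.6%). For Ndrg2-KO against untreated DCs the count was 4 with cells under 5% mitochondrial UMIs (17.8%), and 2 without the 6% highest Scrublet scores (19.3%), with median-ratio scaling (19.4%), or in mature DC-like clusters alone (14.3%). In fibroblast-like cells it was 1 with a mean over cells (5.7%) or sub-clusters weighing the same (5.01%), and 2 without the sub-cluster of 1 library (5.73%). The Lgals1 log2 ratio there, 0.94, was 0.85 with median-ratio scaling, 1.07 with a mean over cells or with equal sub-clusters, 0.999 with totals without mitochondrial and ribosomal protein genes, 0.996 with 30 principal components, 0.98 for cells chosen by markers and 1.12 without the sub-cluster of 1 library. Without the unnamed sub-cluster the count stayed 0, and the ratios were 0.96 for Lgals1 and 0.34 for Lgals3 in place of 0.94 and 0.88. Of 285 ratios of members under alternatives, 274 kept their sign, but 133 left the counting interval of the main ratio and 152 stayed within it. Among counts of members, 11 changed by more than 1.5-fold or from 0 and 44 did not. The 30 shares of cells all left their main interval at the lower drawing depth. The sign differed for Lgals8 and Lgals9 under VD3 and for Lgals1 in Ndrg2-KO DCs when mature DC-like clusters were taken alone (0.33, 0.04 and -0.67), for Lgals3bp between Ndrg2-KO DC and control DC wounds without the neutrophil-like clusters (0.07), and for Lgals1 between blank hydrogel and control DC wounds under 4 alternatives (up to 0.16); with a mean over cells it differed for Lgals8 in 2 comparisons and for Lgals9 in 1. The cause was not tested. Alternatives on mature DC-like clusters, neutrophil-like clusters and fibroblast sub-clusters were chosen after seeing the data. Looser cell filters were not run in fibroblast-like cells, since the added cells have no cluster. Depth limits Lgals8 and Lgals9 in small clusters, where a handful of UMIs set the ratio.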
